A study of Mus musculus with 6 samples.

Results

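The 9 genes described here encode leukocyte integrin chains and the adhesion ligands that they bind on vessels, and were taken by name from the 32285 genes counted in retinas with oxygen-induced retinopathy (OIR). They are Itgb2, Itgam, Itgal, Itgax, Itga4, Itgb1, Icam1, Icam2 and Vcam1, and each was matched by its Ensembl identifier. Wild-type C57BL/6J pups were kept with their mothers in 75% O2 for 5 days from postnatal day 8 (PN8), which obliterates the central retinal capillaries. From PN13 the OIR-Norm pups breathed room air under a control gas flow, and the OIR-CIH pups underwent chronic intermittent hypoxia (CIH), with 266 cycles of 135 s each spread over 10 h of the day, between 20.95% and 5% O2. At PN18 bulk retinal RNA was sequenced in 3 samples of each group, OIR-CIH and OIR-Norm, and both groups carried the same hyperoxic injury, so that no uninjured retina was compared here.

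Integrins are receptors built from one alpha and one beta chain. The beta2 chain, encoded by Itgb2, pairs with the alpha chains CD11b (Itgam), CD11a (Itgal) and CD11c (Itgax) on leukocytes, including microglia, and these pairs bind ICAM-1 and ICAM-2 on endothelium as well as complement fragments and matrix. The alpha4 chain (Itga4) pairs with beta1 (Itgb1) to bind VCAM-1 and fibronectin, and beta1 also pairs with many other alpha chains in most cell types. In vessels, ICAM-1 and VCAM-1 are induced by inflammatory signals through NF-κB, whereas ICAM-2 is held constitutively by endothelial cells.

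The promoter windows of Icam1 and Itgam are shown because Icam1 is the inducible ligand and Itgam the more abundant of both myeloid alpha chains, Itgam and Itgax, among the 5 members matched in the RefSeq promoter table (GRCm38.p6). Each window holds 300 bases on the plus strand, 250 before and 50 after the annotated start. Capitals in Icam1 (chr9:21015690-21015989) mark GGAANTTCC, the letters of a κB-type element, TTCCNGGAA, the spacing that STAT factors recognise, and TATAAA. Capitals in Itgam (chr7:128062390-128062689) mark GAGGAA, the core of PU.1 elements, on either strand.
Icam1: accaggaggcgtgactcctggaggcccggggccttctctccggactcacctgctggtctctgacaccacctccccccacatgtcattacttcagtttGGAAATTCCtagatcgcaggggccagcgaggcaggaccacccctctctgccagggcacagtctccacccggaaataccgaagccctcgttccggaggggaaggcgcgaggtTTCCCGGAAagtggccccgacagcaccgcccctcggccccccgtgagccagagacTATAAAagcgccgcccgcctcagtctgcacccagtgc
Itgam: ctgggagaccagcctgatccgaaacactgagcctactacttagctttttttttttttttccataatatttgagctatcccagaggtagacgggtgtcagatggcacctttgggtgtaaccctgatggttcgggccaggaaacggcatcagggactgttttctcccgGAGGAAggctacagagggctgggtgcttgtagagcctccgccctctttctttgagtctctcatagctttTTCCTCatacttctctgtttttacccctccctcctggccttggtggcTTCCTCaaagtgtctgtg
The Icam1 window held GGAANTTCC from -153 to -145 and TTCCNGGAA from -42 to -34 relative to the start annotated in RefSeq, and TATAAA from 14 to 19 after it. The gene coordinates given below start further downstream, at 21015985, so all 3 motifs lie before that start. Over all 32851 windows in the table, searched on both strands, GGAANTTCC was found in 0.928%, TTCCNGGAA in 1.15% and TATAAA in 13.6%. Among the 5 member windows searched, Itga4, Itgam, Itgax, Itgb1 and Icam1, these 3 motifs were found only in Icam1. GAGGAA was present at 3 places in Itgam and 1 in Itgb1, was not found in the window of Itgax, and occurred in 28.3% of all windows. The motifs were chosen with the Icam1 sequence in view, and a match describes letters and not binding.

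Total counts ran from 26289905 to 38010151 per library and overlapped between the groups. Levels are given as CPM, a gene's reads over the library total after TMM scaling (trimmed mean of M-values) in the customary unit of that name. All 9 members were among the 20021 genes with a total of at least 10 reads that were tested with edgeR's quasi-likelihood test. Genes were called where the Benjamini-Hochberg adjusted p was under 0.05 and the size of the log2 fold change over 0.5, and a negative log2 fold change means a lower level in OIR-CIH. In each library Xist was at 298 CPM or more and the Y-linked Ddx3y at 21.2 CPM or more, so each held RNA of both sexes. Xist reached 1650 CPM in OIR-Norm replicate 2 and Ddx3y 65.0 CPM in OIR-Norm replicate 3, so the mix of sexes differed between libraries. The labels, however, name 3 eyes per group, and n counts libraries whose number of animals is not known. The p-values measure the spread between these libraries only. Photoreceptor markers summed to between 49600 and 65000 CPM, with Gnat1, rod transducin, among the most abundant, as in retina.

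The beta2 integrin genes Itgb2, Itgam and Itgax and the ligand gene Icam1 were lower in every OIR-CIH library than in every OIR-Norm library, and Vcam1 was higher by a small margin. None of the 9 members was called by edgeR, against 0.315% of all genes tested (0.215% lower and 0.0999% higher in OIR-CIH). At an unadjusted p under 0.05 there were 6 (Itgb2, Itgam, Itgax, Itga4, Itgb1 and Icam1), all lower in OIR-CIH, against 13.2% of all genes in either direction and 7.01% lower. Groups that did not overlap were found for 5 of the 9 members and for 18.4% of all genes tested. Of these 5 members 4 were lower in OIR-CIH, against 9.26% of all genes, and 1 was higher, against 9.12%. DESeq2, the kind of count model the authors used, called 2 members, Itgb2 and Icam1, and 0.674% of all genes. It gave no adjusted p for Itgax. No member was called by limma on log2(CPM + 0.5), limma-voom, median-of-ratios scaling, the filterByExpr filter or a replicate block, which called 0.33%, 0.29%, 0.32%, 0.364% and 0.42% of the genes they tested. With every gene of at least 1 count tested, edgeR called 2 members, Itgb2 and Icam1, and 0.872% of those genes. Without OIR-CIH replicate 3 edgeR called 1 member, Itgb2, and 56 genes in all. The median log2 fold change of the 9 members was -0.38 and that of all genes tested -0.0028.

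To compare levels between genes, CPM was divided by the summed length in kilobases of all annotated exons of each gene. This length, 18313 bases for Ptprc and 3052 for Itgb2, can exceed that of a single transcript. The order of genes therefore also depends on which exons are annotated. On this scale Itgb1 stood highest, between 23.9 and 36.0 CPM per kb over the 6 libraries. Itga4 followed at 5.62 to 9.17 and Vcam1 at 2.60 to 3.13 CPM per kb, and none of these ranges touched the next. Itgam, at 0.780 to 1.33 CPM per kb, overlapped with Icam2 at 0.330 to 1.11, Icam2 with Itgb2 at 0.318 to 1.14, and Itgb2 with Icam1 at 0.239 to 0.821. Itgal and Itgax were lowest, at 0.0777 to 0.190 and 0.0409 to 0.175 CPM per kb, and could not be told apart by range. Ptprc, the pan-leukocyte gene for CD45, was at 0.0600 to 0.136 CPM per kb and Csf1r, the receptor of microglial survival signals, at 2.85 to 4.32. Itga4 and Itgb1, which are not restricted to leukocytes, stood above these 2 leukocyte genes in every library.

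**Figure D1:**
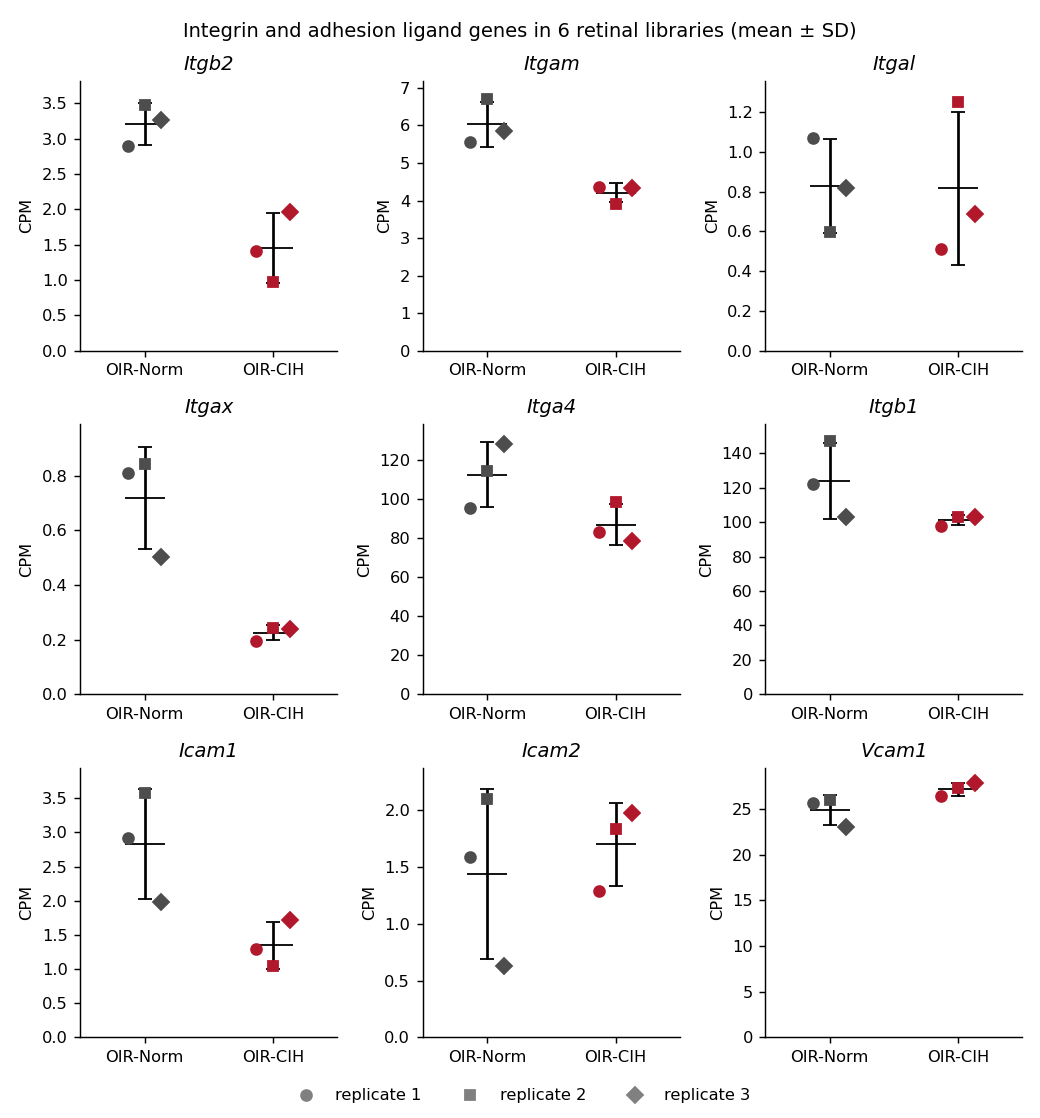
CPM (y axis, from 0) of each of the 9 genes in the OIR-Norm (grey) and OIR-CIH (red) libraries, with the replicate number as symbol shape and the mean ± SD (n = 3 libraries) as bar. The red points of Itgb2, Itgam, Itgax and Icam1 lie entirely under the grey ones, those of Vcam1 lie just above them, and the other 4 genes overlap.

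Itgb2 (ENSMUSG00000000290, chromosome 10, 77530252 to 77565708, plus strand, GRCm38), the shared beta2 chain, had 1.41, 0.971 and 1.96 CPM in OIR-CIH replicates 1 to 3 and 2.89, 3.47 and 3.27 CPM in OIR-Norm replicates 1 to 3. The OIR-CIH values lay entirely below the OIR-Norm values, with OIR-CIH replicate 2 the lowest. The means were 1.45 ± 0.495 and 3.21 ± 0.296 CPM (SD, n = 3 each), from 28 to 104 reads per library. The log2 fold change was -1.13 (standard error 0.24), and OIR-Norm was 2.18-fold higher. The adjusted p from edgeR was 0.0832, so the gene, 108th of 20021 by p, missed the threshold. It passed with DESeq2 (adjusted p = 0.00807), with edgeR on every gene with at least 1 count (0.00526), and with edgeR without OIR-CIH replicate 3 (log2 fold change -1.44, adjusted p = 0.0427). Over the 6 edgeR fits without 1 library the adjusted p ran from 0.0427 to 0.344.

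Itgam (ENSMUSG00000030786, chromosome 7, 128062640 to 128118491, plus strand), the CD11b chain by which microglia are recognised in cytometry, had 4.36, 3.92 and 4.34 CPM in OIR-CIH and 5.55, 6.70 and 5.84 CPM in OIR-Norm. The groups did not overlap, and the OIR-CIH libraries were close to each other. The means were 4.20 ± 0.248 and 6.03 ± 0.598 CPM (SD, n = 3 each). The log2 fold change was -0.52 (standard error 0.15), and the adjusted p was 0.206 by edgeR and 0.128 by DESeq2.

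Itgax (ENSMUSG00000030789, chromosome 7, 128129547 to 128150657, plus strand), the CD11c chain of dendritic cells and of some activated microglia, starts 11055 bases beyond the end of Itgam. It was counted with only 5, 7 and 9 reads in OIR-CIH and 25, 24 and 16 reads in OIR-Norm. These were 0.196, 0.243 and 0.238 CPM against 0.811, 0.842 and 0.503 CPM, and the groups did not overlap. The log2 fold change of -1.64 (standard error 0.40) was the largest in size among the members, but its adjusted p from edgeR was 0.148, and DESeq2 gave an unadjusted p of 0.00409 with no adjusted value because of its low counts. With 0.5 CPM added before the logarithm the log2 fold change was -0.74, as the added value shrinks a level this low.

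Itgal (ENSMUSG00000030830, chromosome 7, 127296260 to 127335138, plus strand), the CD11a chain found on most leukocytes, behaved otherwise. It had 0.510, 1.25 and 0.688 CPM in OIR-CIH and 1.07, 0.596 and 0.817 CPM in OIR-Norm, from 13 to 36 reads. OIR-CIH replicate 2 was the highest of all and OIR-CIH replicate 1 the lowest, so the groups were interleaved. Its log2 fold change of -0.03 had a standard error of 0.37 (edgeR adjusted p = 0.985), and turned positive, to 0.20, 0.10 and 0.20, without OIR-CIH replicate 1, OIR-CIH replicate 3 or OIR-Norm replicate 1.

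Itga4 (ENSMUSG00000027009, chromosome 2, 79255426 to 79333123, plus strand), the alpha4 chain of VLA-4, was far more abundant, with 83.1, 98.5 and 78.6 CPM in OIR-CIH and 95.1, 114 and 128 CPM in OIR-Norm. OIR-CIH replicate 2 exceeded OIR-Norm replicate 1, so the groups overlapped. The means were 86.7 ± 10.4 and 113 ± 16.6 CPM (SD, n = 3 each), and the log2 difference was -0.38 with a standard error of 0.11 (edgeR adjusted p = 0.215). With all genes of 1 count or more in the test it had an adjusted p of 0.0333 by edgeR, but its log2 fold change of -0.37 in that fit stayed inside the minimum of 0.5. The 3′ end of the gene overlaps Cerkl on the opposite strand, whose level was 43.8 ± 5.40 CPM in OIR-CIH and 50.1 ± 6.77 CPM in OIR-Norm (SD, n = 3 each). The strand setting of the counts is not given in the sources used here, and the share of Cerkl reads in the Itga4 count was not tested.

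Itgb1 (ENSMUSG00000025809, chromosome 8, 128685654 to 128733200, plus strand), the beta1 chain, had 97.6, 103 and 103 CPM in OIR-CIH and 122, 147 and 103 CPM in OIR-Norm. OIR-Norm replicate 3 fell within the narrow range of the OIR-CIH libraries. The means were 101 ± 3.07 and 124 ± 22.3 CPM (SD, n = 3 each), and the log2 difference was -0.29 with a standard error of 0.11 (edgeR adjusted p = 0.297).

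Icam1 (ENSMUSG00000037405, chromosome 9, 21015985 to 21028817, plus strand), the inducible ligand of the beta2 integrins, had 1.29, 1.04 and 1.72 CPM in OIR-CIH and 2.92, 3.58 and 1.98 CPM in OIR-Norm. All OIR-CIH values were below all OIR-Norm values, although OIR-CIH replicate 3 and OIR-Norm replicate 3 were close. The means were 1.35 ± 0.344 and 2.83 ± 0.804 CPM (SD, n = 3 each), from 30 to 102 reads per library. The log2 fold change was -1.04 (standard error 0.26), and OIR-Norm was 2.06-fold higher. The adjusted p was 0.156 from edgeR, 0.0396 from DESeq2 and 0.0203 from edgeR on every gene with at least 1 count, where 0.872% of all genes were called. Without single libraries its log2 fold change ran from -1.28 to -0.84 and its adjusted p from 0.0546 to 0.461.

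Icam2 (ENSMUSG00000001029, chromosome 11, 106377656 to 106388075, minus strand), the constitutive endothelial ligand, had 1.29, 1.84 and 1.98 CPM in OIR-CIH and 1.59, 2.10 and 0.628 CPM in OIR-Norm. OIR-Norm replicates 2 and 3 were the highest and the lowest of the 6 libraries. Its log2 fold change of 0.27 had a standard error of 0.35 (edgeR adjusted p = 0.788) and turned to -0.10 without OIR-Norm replicate 3.

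Vcam1 (ENSMUSG00000027962, chromosome 3, 116109949 to 116129688, minus strand), the ligand of alpha4 beta1, had 26.4, 27.3 and 27.8 CPM in OIR-CIH and 25.6, 26.0 and 23.0 CPM in OIR-Norm. Every OIR-CIH library was above every OIR-Norm library, by 0.13 on the log2 scale (standard error 0.09, adjusted p = 0.576 from edgeR). The means of 27.2 ± 0.674 and 24.9 ± 1.63 CPM (SD, n = 3 each) differed by 1.09-fold. For the 5 members whose groups did not overlap, p by exact permutation (two-sided) was 0.1, the smallest value that 3 against 3 libraries allow. The genes that overlap Icam1 and Vcam1 on the opposite strand, Gm47079 and Gm43109, had at most 0.370 and 0.0702 CPM in any library.

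**Figure D2:**
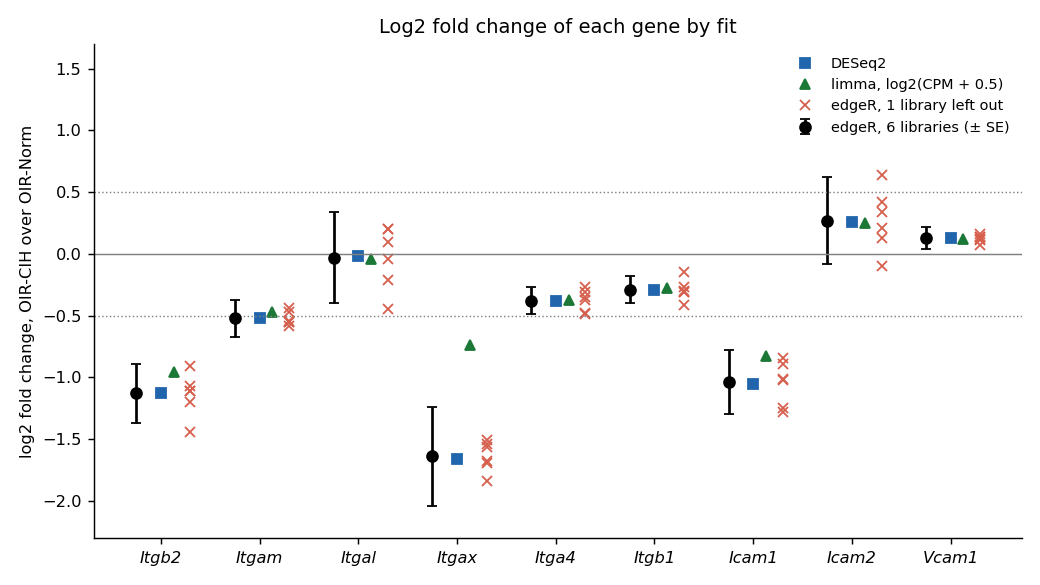
Log2 fold change of OIR-CIH over OIR-Norm (y axis) for each gene by edgeR with its standard error (black), DESeq2 (blue), limma on log2(CPM + 0.5) (green) and edgeR without each library in turn (crosses), with dotted lines at -0.5 and 0.5. Itgb2 and Icam1 lie under the lower line in all fits shown, as does Itgax, and Itgal and Icam2 have crosses on both sides of 0.

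Ratios between 2 genes of the same library do not depend on the scaling and compare the members directly. The log2 ratio of Icam1 to Vcam1 was -4.35, -4.71 and -4.01 in OIR-CIH and -3.13, -2.86 and -3.54 in OIR-Norm. The groups did not overlap, and the means of -4.36 ± 0.35 and -3.18 ± 0.34 (SD, n = 3 each) differed by -1.18. The log2 ratio of Icam1 to Icam2 differed by -1.44 and that of Itgb2 to Itgb1 by -0.93, each with groups apart.

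Within the beta2 family, the log2 ratio of Itgam to Itgb2 was 0.94, 0.95 and 0.84 in OIR-Norm and 1.62, 2.01 and 1.15 in OIR-CIH. OIR-Norm libraries agreed closely, and every OIR-CIH library lay above them, by 0.69 in the mean. For each of these 4 ratios p by exact permutation (two-sided) was 0.1, the smallest possible, and 0.125 after adjustment over the 5 ratios computed. The log2 ratio of Itga4 to Itgb1 was -0.23 ± 0.16 in OIR-CIH and -0.13 ± 0.39 in OIR-Norm (SD, n = 3 each) and overlapped (p = 0.8, exact permutation test).

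**Figure D3:**
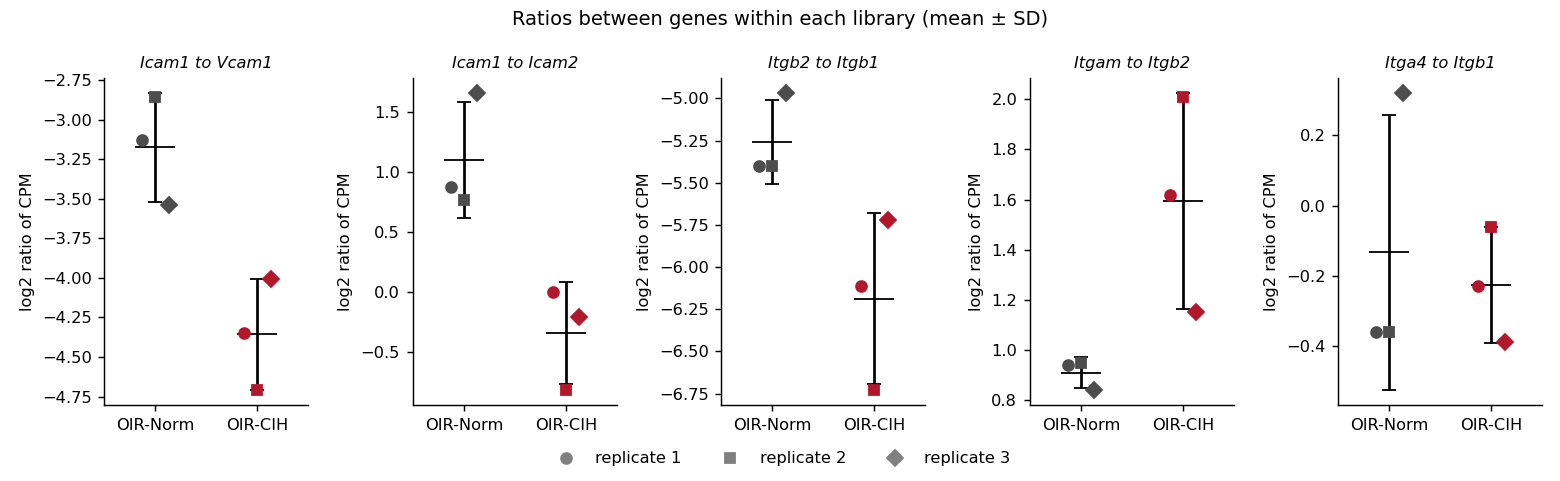
Log2 ratio of CPM (y axis) between pairs of genes in each OIR-Norm (grey) and OIR-CIH (red) library, with the mean ± SD as bar and an axis range of its own in each panel. The groups are apart in the first 4 panels, with OIR-CIH lower for Icam1 to Vcam1, Icam1 to Icam2 and Itgb2 to Itgb1 and higher for Itgam to Itgb2.

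In bulk RNA, fewer cells of a type and less RNA per cell cannot be told apart, so markers of the cells that carry these genes are given beside them. Of 20 microglia markers, 19 were lower in OIR-CIH and their median was -0.30 on the log2 scale, and 1 was called, Mpeg1, a perforin-like gene of macrophages (log2 fold change -0.72, adjusted p = 0.0131 from edgeR), a call lost without OIR-CIH replicate 1 or 2. At an unadjusted p under 0.05 there were 11 of the 20, and 11 had groups that did not overlap, all lower in OIR-CIH. Over all genes tested, 13.2% had an unadjusted p under 0.05 from edgeR, and 9.26% had groups apart and lower in OIR-CIH. DESeq2 called 2, Mpeg1 and Cx3cr1, the fractalkine receptor of microglia, which had 9.06 ± 2.26 CPM in OIR-CIH and 14.3 ± 0.907 CPM in OIR-Norm (SD, n = 3 each; log2 fold change -0.65, edgeR adjusted p = 0.142). Sall1, a transcription factor of microglial identity, and Cd68, a lysosomal protein of phagocytes, were at -0.82 and -0.73 (edgeR adjusted p = 0.169 and 0.173). Tmem119, the 1 marker that was higher, was at 0.08 and P2ry12 at -0.24, both with groups that overlapped (edgeR adjusted p = 0.913 and 0.573). Ctss, an abundant lysosomal protease of microglia, had a log2 fold change of -0.24 and an adjusted p of 0.297 from edgeR. The summed level of the 20 markers was 179 to 201 CPM in OIR-CIH and 218 to 249 CPM in OIR-Norm and did not overlap. The log2 ratio of Itgb2 to this sum was -6.98, -7.56 and -6.68 in OIR-CIH and -6.43, -6.15 and -6.06 in OIR-Norm, a difference of -0.86 with groups apart. For Itgam the same difference was -0.18 and the groups overlapped, for Itgax it was -1.30 with groups apart, and for Itgal it was 0.26 with overlap and turned to -0.12 without OIR-CIH replicate 2. Ptprc, with 1.10 to 2.25 CPM in OIR-CIH and 1.96 to 2.50 CPM in OIR-Norm, and Csf1r, with 16.4 to 20.7 and 18.8 to 24.9 CPM, overlapped between the groups. Their log2 fold changes were -0.63 and -0.19, and their edgeR adjusted p = 0.36 and 0.549 (unadjusted 0.0408 and 0.153), so that both had the same direction as Itgb2.

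Other leukocytes left few reads. All 12 monocyte and neutrophil markers had a mean under 1 CPM, with Ly6g at 0 in each library, and their summed level was 0.451 to 0.900 CPM in OIR-CIH and 0.519 to 1.44 CPM in OIR-Norm. The most abundant, S100a9, a calcium-binding protein of neutrophils, and Ccr2, the monocyte chemokine receptor, reached 0.631 and 0.456 CPM, both in OIR-Norm replicate 2. Of 12 lymphocyte markers 6 had under 10 reads in all, Cd3e, the T cell receptor subunit, was at 0 in each library, and their summed level was 4.92 to 8.12 CPM in OIR-CIH and 5.16 to 6.26 CPM in OIR-Norm. Most of that sum came from Cd8a, at 2.10 to 4.91 CPM, and Lck, at 0.589 to 1.45 CPM. None of the 5 and 6 tested genes of these lists was called by edgeR or DESeq2. An unadjusted p under 0.05 from edgeR was found for 1 and 0, against 13.2% of all genes.

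Endothelial markers varied more within OIR-Norm than within OIR-CIH. The geometric mean of 17 such markers was 5.56, 6.24 and 7.78 CPM in OIR-CIH and 7.30, 11.4 and 4.60 CPM in OIR-Norm, so that OIR-Norm replicates 2 and 3 held the highest and the lowest value, as they did for Icam2. In OIR-CIH 13 of the 17 were below and 4 above their OIR-Norm level (median -0.24 on the log2 scale). None was called by edgeR or DESeq2, and 2 had an unadjusted p under 0.05 from edgeR, against 13.2% of all genes. Kdr and Flt1, the VEGF receptors that led the list in abundance, had log2 fold changes of -0.01 and -0.24. Kdr, at 165 to 179 CPM over the 6 libraries, did not share the spread of the geometric mean. The largest log2 fold changes in size were those of Vwf and Cdh5, at -0.89 and -0.64, both with groups that overlapped (edgeR adjusted p = 0.37 and 0.497). Relative to this geometric mean Icam1 stood at -2.10, -2.58 and -2.18 on the log2 scale in OIR-CIH and at -1.32, -1.67 and -1.22 in OIR-Norm, a difference of -0.88 with groups apart. Icam2 was 0.56 higher in OIR-CIH on the same scale, also with groups apart, and Vcam1 0.30 higher with overlap. Vcam1 itself varied far less than the geometric mean within OIR-Norm, at 25.6, 26.0 and 23.0 CPM in replicates 1 to 3. Which cells held the Vcam1 RNA was not tested, so its ratios are not read here as endothelial.

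Mural and glial cells were checked in the same way. All 10 pericyte and smooth muscle markers had negative log2 fold changes (median -0.46) and a geometric mean from 3.30 to 4.43 CPM in OIR-CIH and from 2.47 to 8.33 CPM in OIR-Norm. OIR-Norm replicates 2 and 3 again held the highest and the lowest value. None of the 10 was called by edgeR, with 3 at an unadjusted p under 0.05, against 13.2% of all genes tested. DESeq2 called Myh11, a smooth muscle myosin. Rgs5 and Pdgfrb, which mark pericytes, led the list with 57.0 to 166 and 10.5 to 18.5 CPM. Of 10 Müller glia and astrocyte markers 5 were lower and 5 higher. An unadjusted p under 0.05 from edgeR was found for 5, against 13.2% of all genes tested. Groups were apart for 5, 4 of these lower and 1 higher in OIR-CIH, against 9.26% and 9.12% of all genes. Aqp4, the glial water channel, was at -0.31 with groups apart (edgeR adjusted p = 0.103). Rlbp1, the 1 marker with groups apart and higher in OIR-CIH, was at 0.34 (edgeR adjusted p = 0.164). In this list 1 was called, Gfap, the intermediate filament of reactive glia (log2 fold change -1.15, adjusted p = 0.000107 from edgeR), whereas Glul and Apoe, the most abundant, were at 0.15 and 0.07 with adjusted p of 0.638 and 0.831. All 10 photoreceptor markers were higher in OIR-CIH, with a median of 0.13, and 2 of them had groups apart, against 18.4% of all genes tested. None was called by edgeR or DESeq2, with 1 at an unadjusted p under 0.05 from edgeR, against 13.2% of all genes. The part of any of these cells in the integrin and ligand values was not tested.

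**Figure D4:**
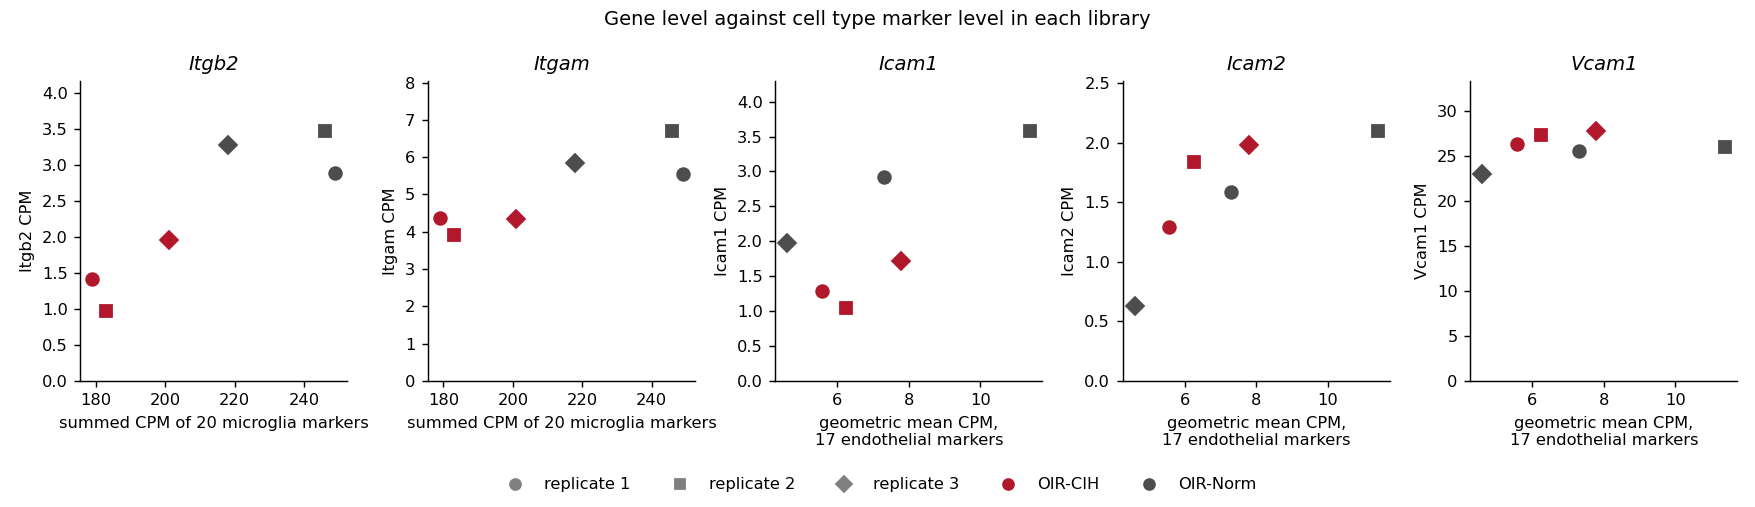
CPM of a gene (y axis, from 0) against the marker level of a cell type (x axis, CPM) in each library, OIR-Norm in grey and OIR-CIH in red, with the replicate number as symbol shape. Itgb2 and Itgam lie lower in the OIR-CIH libraries, whose microglia marker sums (179 to 201 CPM) are also lower, and OIR-Norm replicates 2 and 3 lie at the 2 ends of the endothelial scale (11.4 and 4.60 CPM).

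The remaining integrin genes were counted as a list. Of 20 other alpha and beta chains 19 were tested, and none was called by edgeR or DESeq2. An unadjusted p under 0.05 from edgeR was found for 1, against 13.2% of all genes. Their median log2 fold change was -0.07, 12 being lower and 7 higher. The most abundant were Itgb8 and Itgav, which pair to activate TGF-beta, with 82.0 ± 16.6 and 71.2 ± 4.54 CPM in OIR-CIH and 74.9 ± 9.09 and 74.7 ± 9.11 CPM in OIR-Norm (SD, n = 3 each). Itgb7, the other partner of the alpha4 chain, was at 0.227 to 0.421 CPM.

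Of 26 genes that activate integrins or couple them to the cytoskeleton 24 were tested, 16 of them lower and 8 higher (median -0.18). None was called by edgeR or DESeq2, and 6 had an unadjusted p under 0.05 from edgeR, against 13.2% of all genes. Groups were apart for 7 genes lower and 2 higher in OIR-CIH, against 9.26% and 9.12% of all genes tested. Tln2, a talin that links integrin tails to actin, and Cyth1, a regulator of beta2 adhesion, were the most abundant, at -0.13 and 0.14 on the log2 scale (edgeR adjusted p = 0.553 and 0.405). Fermt3, the kindlin of blood cells, had 3.10 ± 0.334 CPM in OIR-CIH and 3.79 ± 0.437 CPM in OIR-Norm (SD, n = 3 each). Fgr and Syk, kinases that signal from beta2 integrins in myeloid cells, had log2 fold changes of -1.13 and -0.68 with adjusted p of 0.207 and 0.268 from edgeR.

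Of 20 other vascular adhesion molecules 17 were tested, 10 of them lower and 7 higher (median -0.18), and none was called by edgeR or DESeq2. An unadjusted p under 0.05 from edgeR was found for 3, against 13.2% of all genes. Groups were apart for 1 gene lower and 3 higher in OIR-CIH, against 9.26% and 9.12% of all genes tested. Jam2, a junctional ligand of alpha4 beta1, had 282, 267 and 269 CPM in OIR-CIH and 241, 236 and 232 CPM in OIR-Norm. Its groups did not overlap, with OIR-CIH higher by 0.21 (adjusted p = 0.285 from edgeR). Podxl, a sialomucin of the luminal surface, had 214, 206 and 210 CPM in OIR-CIH and 276, 275 and 245 CPM in OIR-Norm, lower in OIR-CIH by a log2 fold change of -0.34 (adjusted p = 0.115 from edgeR). The endothelial selectins that start leukocyte rolling were hardly counted, with Sele at 0.0785 to 0.316 CPM and Selp at 0 to 0.0702 CPM.

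Among 14 matrix and complement ligands of these integrins, 11 were lower and 3 higher (median -0.28). Spp1, which encodes osteopontin, a matrix ligand of alpha4 beta1, was called by edgeR and DESeq2. It had 6.71, 7.77 and 7.28 CPM in OIR-CIH, all below the OIR-Norm libraries, and means of 7.25 ± 0.529 and 12.9 ± 1.77 CPM (SD, n = 3 each), a log2 difference of -0.83 with a standard error of 0.14 (edgeR adjusted p = 0.0175). The call was lost without OIR-CIH replicate 1 or 3. Vtn and Thy1, the most abundant, were at 0.06 and -0.03 with adjusted p of 0.848 and 0.928, and Fn1, fibronectin, which alpha4 beta1 binds, had means of 116 ± 13.7 and 171 ± 53.1 CPM in OIR-CIH and OIR-Norm (SD, n = 3 each; edgeR adjusted p = 0.229).

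Of 14 NF-κB target genes, listed because Icam1 and Vcam1 share that control in other tissues, 13 were tested, 12 of them lower and 1 higher (median -0.70). None was called by edgeR, with 4 at an unadjusted p under 0.05, against 13.2% of all genes tested. DESeq2 called Csf1, the macrophage growth factor (log2 fold change -0.71 and adjusted p of 0.149 from edgeR). Groups were apart for 4 of the lower genes, against 9.26% of all genes tested. They were also apart for the 1 higher gene, Nfkbia (log2 fold change 0.2, edgeR adjusted p = 0.414), against 9.12%. Of the 14 genes 8 had a mean under 1 CPM, where fold changes rest on few reads. The most abundant, Tnfaip3, an inhibitor of the pathway, and Nfkb1, a subunit, had log2 fold changes of -0.01 and -0.19 with adjusted p of 0.976 and 0.406.

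**Figure D5:**
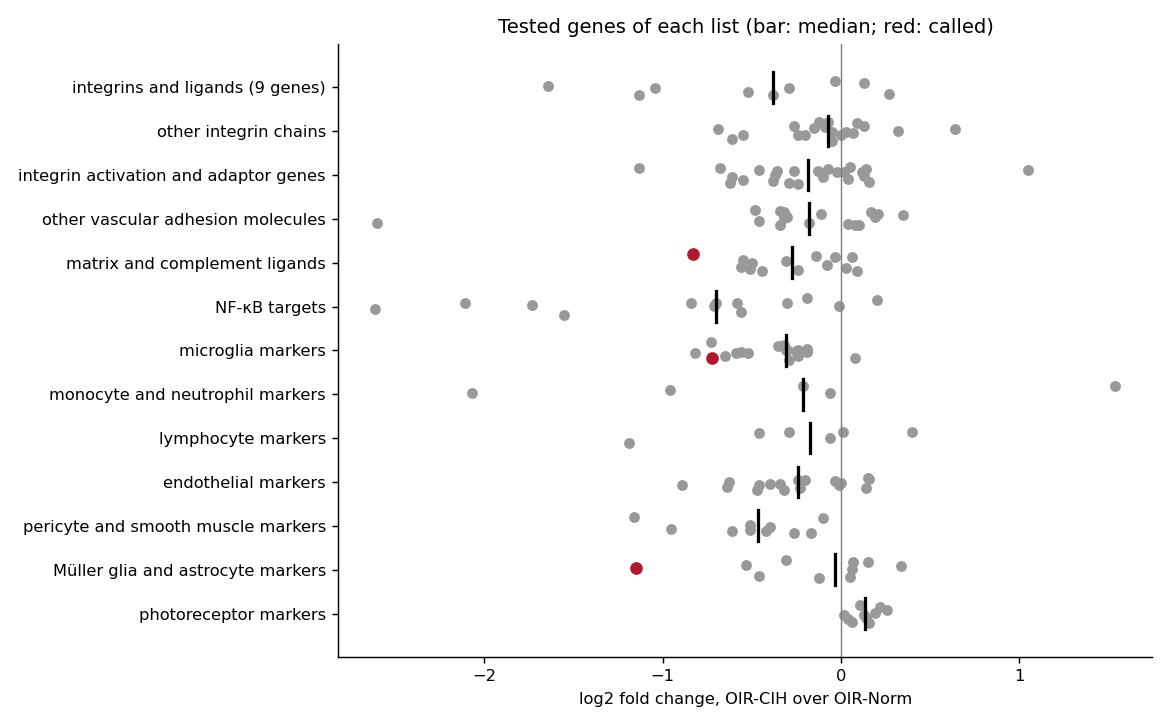
Log2 fold change of OIR-CIH over OIR-Norm by edgeR (x axis) for each tested gene of the 13 lists, with the list median as a bar and called genes in red. The 9 integrin and ligand genes spread from -1.64 to 0.27 with none called, and Spp1, Mpeg1 and Gfap are the called genes of the other lists.

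The genes whose pattern over the 6 libraries was most like that of Itgb2, by Pearson's r of log2(CPM + 0.5) over 14799 genes compared, were Phf8, a histone demethylase (r = 0.993), Ncf1, a subunit of the phagocyte oxidase (0.991), and Map3k5, a stress kinase (0.987). For Icam1 they were Tmem132b (0.995), Abi3bp (0.992) and Col4a5, a basement membrane collagen (0.992). For Vcam1 they were Bicral (0.988), Sema3g, an endothelial semaphorin (0.986), and Lgals3bp, a secreted galectin ligand (0.984). These are the highest of many values over 6 libraries in 2 groups, which share the group difference, and none of these 9 genes had an adjusted p under 0.05 from edgeR.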

How the data were processed

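The PN18 retinal RNA-seq, with 3 samples in each of both groups, was re-analysed. RNA was extracted from dissected retinas, and libraries were made from 250 ng of total RNA with a stranded poly(A) kit. The authors aligned reads with STAR 2.7.9a, using Ensembl 105 by the paper and GRCm38 by the submitters' processing notes, and deposited raw counts per gene without normalization. Which strand column was kept is not given in the sources used here.

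Symbols, lengths and coordinates came from GENCODE M21 (GRCm38) by identifier, which named 32158 of 32285 genes. The 20021 genes whose counts summed to 10 or more were tested with edgeR 4.0.16 in R 4.3.3 (TMM scaling, estimateDisp, glmQLFit and glmQLFTest), with no covariate and thresholds after the study's methods. The standard error was taken as the log2 fold change over the root of F. The method was tested on simulated counts. Ratios were tested by exact permutation in scipy 1.17.1. Replicates differed by more than sampling noise. Alternatives were DESeq2 1.42.0, limma 3.58.1 on log2(CPM + 0.5), limma-voom, median-of-ratios scaling, other filters, no minimum fold change, a replicate block and leaving out each library.

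The members, lists and thresholds were chosen with earlier results of these data known. Named are all members, called genes of each list and its 2 most abundant genes, the 3 genes most like Itgb2, Icam1 and Vcam1 among those with a mean of at least 1 CPM, Csf1r and Ptprc, except that 1 of the abundant genes in each of the microglia and photoreceptor lists is not reported here. Hmox1 was also in this rule and fell by 2.19 on the log2 scale (adjusted p = 6.84e-07 from edgeR). Fermt3, Fgr, Syk, Itgb7, Sele, Selp, Fn1, Csf1, Myh11, Cx3cr1, Cd68, Sall1, Aqp4, Ly6g, Cd3e, Xist, Ddx3y and the overlapping genes were chosen after values were seen. So were Rlbp1, Tmem119, P2ry12, Nfkbia, Vwf and Cdh5. Intervals are not given, and depth limits the genes under 1 CPM. The qPCR, cytometry and imaging were not analysed here.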

Additional observations from a re-analysis of the deposited data

How the results depend on the processing

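Of 117 refits of the 9 members' log2 fold changes, 108 kept direction and side of the threshold, 5 passed it and 4 reversed. The 108 include Itgax by DESeq2, which had no adjusted p and was counted as not called. Itgb2 (-1.13) passed by DESeq2 (-1.13), with every gene of at least 1 count tested (-1.12) and without OIR-CIH replicate 3 (-1.44; range -1.44 to -0.91 without single libraries). Icam1 (-1.04) passed by DESeq2 (-1.05) and with every gene tested (-1.04). With DESeq2 and with every gene tested both fold changes moved by 0.01 or less, and the cause of the altered adjusted p was not tested. Itgal (-0.03) reversed to 0.20 without OIR-CIH replicate 1, 0.10 without OIR-CIH replicate 3 and 0.20 without OIR-Norm replicate 1 (range -0.45 to 0.20), Icam2 (0.27) to -0.10 without OIR-Norm replicate 3 (range -0.10 to 0.64), and the Itga4 to Itgb1 ratio (-0.10) to 0.13 without OIR-Norm replicate 3 (range -0.21 to 0.13).

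Genes called numbered 63 (43 lower, 20 higher in OIR-CIH), 135 by DESeq2 (101 and 34) and 213 when all 24439 genes with at least 1 count were tested (153 and 60). All 63 were among the calls of both. Without single libraries 35 to 104 were called, 24 to 88 lower and 11 to 33 higher, with the fewest in all 3 counts without OIR-CIH replicate 1, the most in total and lower without OIR-Norm replicate 3, and the most higher without OIR-Norm replicate 1. The list of matrix and complement ligands (1 called) had 2 calls with every gene tested and 0 to 2 without single libraries, and the NF-κB list (0) had 1 by DESeq2 and 1 with every gene tested. Deviations of same-numbered libraries correlated at 0.162, 0.143 and -0.238, and not every library correlated best with its own number. A pairing by replicate number was thus not established, but so few libraries cannot exclude one. With a replicate block 84 genes were called (32 higher), no member among them, and 60 of these 84 were among the 63.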
